A study of Mus musculus with 8 samples.

Results

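The genes described here are those whose symbols mark them as enzymes of drug and xenobiotic metabolism, in single cells of mouse hepatoma tumours. They are every row of the deposited table whose symbol begins with Cyp, Ugt, Gst, Aldh, Akr, Adh, Sult, Ces, Fmo or Rdh and a family number, together with Nqo1 and Ephx genes. The rule found 67 of the table's 2000 genes. By role they are 25 oxidising enzymes (22 Cyp and 3 Fmo genes), 9 alcohol, aldehyde and retinol dehydrogenases, 9 reductases, 6 hydrolases and 18 conjugating enzymes. The rule reads symbols and no levels, but it was set with earlier results of these data known.

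As background, liver cells clear foreign compounds, hormones and bile acid precursors in steps. Cytochromes P450 and flavin monooxygenases add or expose a reactive group, dehydrogenases, reductases and esterases convert the products, and transferases attach glutathione, glucuronic acid or sulphate so that they can be excreted. Many of these genes are high in mature hepatocytes, lower in hepatomas, and controlled by liver transcription factors such as HNF4A and CEBPA and by ligand-activated receptors such as AHR. Some members have other duties: aldehyde dehydrogenases of the 1A group make retinoic acid, CYP26B1 breaks it down, and CYP11A1 starts steroid synthesis.

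The tumours were grown from Hepa1-6, an established mouse hepatoma line. The labels give 4 groups: WT tumours or tumours with a Soat1 knockdown, named Soat1KO in the titles, each from animals given PBS or a PD1 antibody intraperitoneally. Each group has a cDNA entry and an oligo entry, 8 entries in all. The age and strain of the animals and the number of tumours per group are not given in the labels, and nothing says how many clones the Soat1 line represents.

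The 53528 cells carry no group. The last number of a cell's name, 1 to 6, places it in 1 of 6 sets of 7569 to 11813 cells, and nothing ties a set to a genotype or treatment. The pooled table therefore counts as a single sample, and neither genotypes nor treatments could be compared. Soat1 was not analysed here. Only set 1, with 9370 cells, could be turned back into UMI counts (distinct RNA molecules). Its cells held 1001 to 261833 UMIs, with a median of 11098.5, and 166954030 UMIs in all. Sets 2 to 6 hold values below 0, so an unrecorded step altered them. For these sets only mean deposited values, their differences and shares of gated cells are given. The values are on a natural log scale, and such a difference is not an expression ratio. The same gate thresholds were used in every set. Whether values or shares are comparable between sets was not tested. Read without the set number, 12741 cell names occurred in more than 1 set. Whether sets share cells was not tested, so they are not counted as independent samples.

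Levels are UMIs per 1000000 UMIs of a cell class in set 1, written CPM. The libraries count transcript 3′ ends, so CPM does not scale with gene length. Brackets after a level ratio hold its exact conditional Poisson 95% interval. Such intervals cover counting error only. Cells are not replicates and no p-value is given. A gene was counted as higher or lower where log2 of the 2 levels, each plus 5 CPM, differed by at least 1, which is 2-fold. The same count over all 2000 genes is given beside each comparison as a percentage, while members are counted out of 67.

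Cells were gated by marker genes that are not members. In set 1, after 97 called doublets (1.04%) were left out, there were 6264 hepatoma cells, 2336 immune cells and 73 fibroblasts. All 30 hepatoma markers had UMIs in hepatoma cells and summed to 23190 CPM there. The 7 immune markers summed to 53.8 CPM and the 14 fibroblast markers to 45.7 CPM in the same cells. The 9 macrophage markers summed to 3263 CPM, of which Apoe, an apolipoprotein gene that liver cells also express, made up 3118 CPM. Without Apoe they summed to 144.8 CPM, against 1891 CPM in immune cells, and C1qa was at 15.3 against 1076 CPM. Within the hepatoma cells, 5 overlapping states were gated by scores (mean values of fixed genes): 431 Fabp1-high cells, 1765 Slco1b2-high cells, 2013 hypoxic cells, 1396 cycling cells and 819 Ppbp-high cells. Each is a range of a score and not a cell type, and 240 cells were in both the Fabp1-high and the Slco1b2-high range. Median UMIs per cell ran from 15465 in the hypoxic state to 26101 in the cycling state, against 3543 in immune cells and 6890 in fibroblasts.

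The first comparison set hepatoma cells against immune cells. Of the 67 members, 34 were higher in hepatoma cells, against 22.7% of all genes, and 0 were lower, against 24.7% of all genes. With 20 CPM added in place of 5, 22 members were higher. The median log2 difference of the members was 1.02, and that of all genes was 0.00. All roles took part: 8 of 25 oxidising enzymes, 5 of 9 dehydrogenases, 6 of 9 reductases, 4 of 6 hydrolases and 11 of 18 conjugating enzymes were higher. Of the 67 members, 28 reached 20 CPM in either class and 27 were below 5 CPM in both. In mean deposited values, 54 members were higher in hepatoma cells in all 6 sets (48.5% of all genes were). The exception in the other direction was Sult1e1, an oestrogen sulphotransferase, lower in all 6 sets (30.3% of all genes were), at 0.108 CPM in hepatoma cells.

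Among the dehydrogenases, Aldh2, the mitochondrial enzyme that clears acetaldehyde, had the highest level of any member in hepatoma cells, 392.6 CPM against 82.4 CPM in immune cells, a ratio of 4.76 [4.47 to 5.08]. Its mean deposited value in hepatoma cells was 1.19 in the lowest set, 1.29 at the median and 1.33 in the highest. Aldh1a1, a cytosolic retinaldehyde dehydrogenase, followed at 349.2 CPM against 59.8 CPM, 5.84-fold [5.43 to 6.30]. Its mean deposited value ran from 1.03 to 1.20, with a median of 1.17. Both were spread over most hepatoma cells: 90.0% of them had an Aldh2 UMI and 83.7% an Aldh1a1 UMI. In immune cells the highest of the 6 set values was 0.372 for Aldh2 and 0.293 for Aldh1a1, so the classes did not overlap for either gene.

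The glutathione transferases made up most of the other abundant members. Gsta3 stood at 279.0 CPM in hepatoma and 38.7 CPM in immune cells, 7.21-fold [6.58 to 7.92]. Gstm1 stood at 264.1 against 40.0 CPM, 6.60-fold [6.03 to 7.23], and Gsta4, an enzyme for lipid peroxidation products, at 184.0 against 26.9 CPM, 6.85-fold [6.14 to 7.67]. Smaller ratios were found for Gsto1, 158.1 against 53.6 CPM, 2.95-fold [2.73 to 3.19], and for Gstp1, 86.1 against 29.9 CPM, 2.88-fold [2.60 to 3.21]. Gstm2 reached 90.0 against 13.3 CPM, 6.79-fold [5.81 to 7.99]. Ugt2b34, a glucuronosyltransferase, reached 157.6 against 18.2 CPM, 8.67-fold [7.59 to 9.95].

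Of the reductases, Akr1c6, a hydroxysteroid dehydrogenase, was the most abundant in hepatoma cells at 149.4 CPM against 16.0 CPM in immune cells, 9.33-fold [8.09 to 10.8]. Akr1b8 stood at 87.3 against 15.01 CPM, 5.82-fold [5.02 to 6.78]. Of the oxidising enzymes, Cyp1a1, the classic target of the AHR, had the highest level, 104.4 against 16.3 CPM, 6.39-fold [5.55 to 7.39]. The 12 members named in these paragraphs were higher in hepatoma cells in 6 of 6 sets. The 22 Cyp genes covered a wide range of levels in the hepatoma cells as a whole. After Cyp1a1 came Cyp2c68 at 58.1 CPM, Cyp3a13 at 43.8 CPM, Cyp1a2 at 27.2 CPM, Cyp4f16 at 25.6 CPM, Cyp21a1 at 24.5 CPM and Cyp2a4 at 17.3 CPM. The other 15 lay between 0.121 CPM for Cyp1b1 and 7.43 CPM for Cyp2d10.

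**Figure D1:**
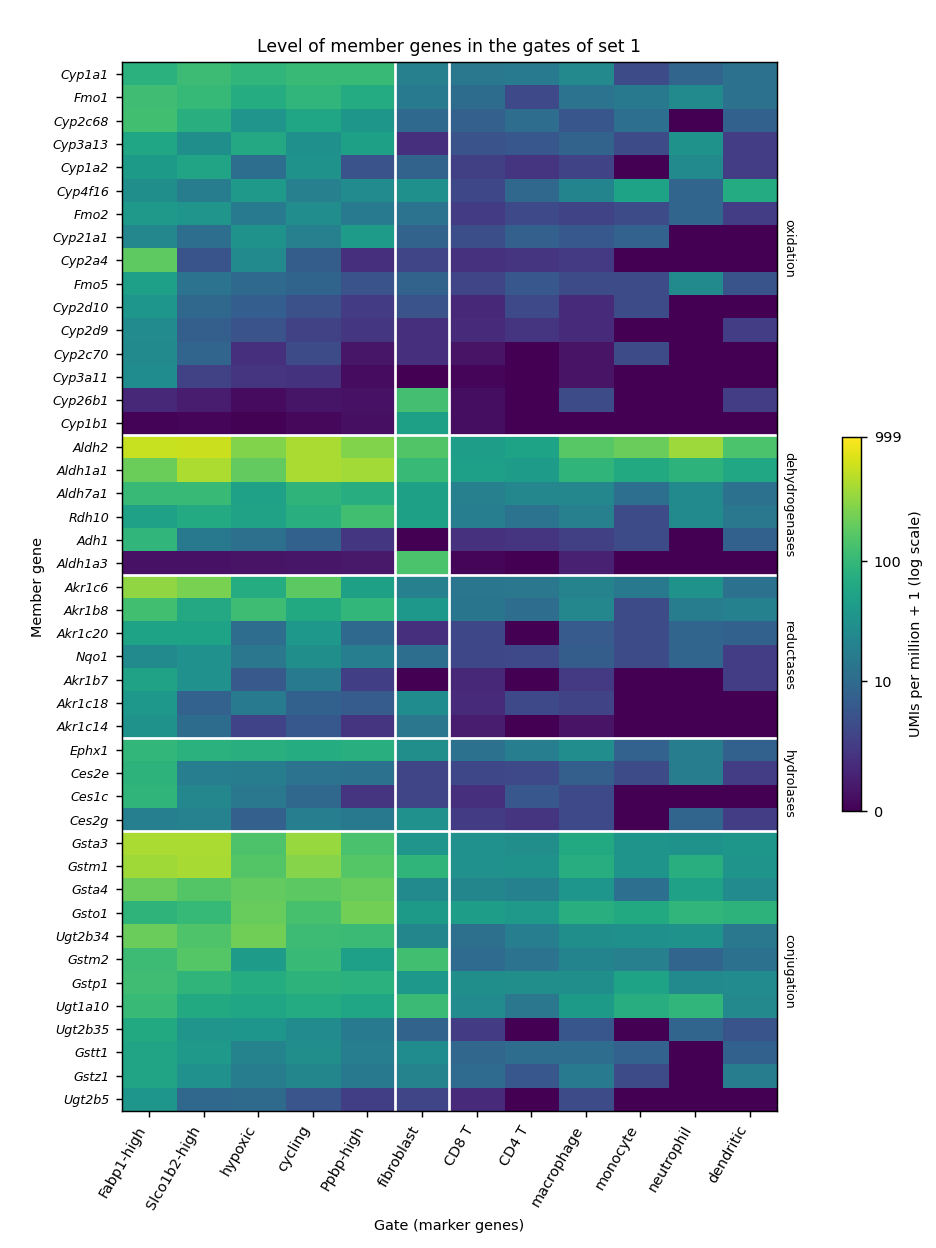
Levels of the 45 members that reached 20 CPM in a plotted gate, in the 12 gates of set 1 (columns), as CPM plus 1 on a logarithmic colour scale, grouped by role. In each of the 5 hepatoma states on the left the highest member is Aldh2 or Aldh1a1, the Fabp1-high column stands out for Cyp2a4, Adh1, Ces1c and Ces2e, and the fibroblast column for Aldh1a3, Cyp26b1 and Cyp1b1.

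Member UMIs in immune cells were set beside those of hepatoma markers, which immune cells should lack. The gates had used these markers and no members. Their mean value had to be at least 0.5 in a hepatoma cell and below 0.75 in an immune cell. The marker range is therefore tied to the gates, here and for each immune class. Fibroblasts were gated without a limit on hepatoma markers. For 21 hepatoma markers at 20 CPM or more in hepatoma cells, the level in immune cells was 0.102 to 0.192 of that in hepatoma cells, with a median of 0.152. Of the 28 members at 20 CPM or more, 16 lay within that range and Ugt2b35 (0.0948) and Fmo2 (0.0994) lay below it. Aldh1a1 at 0.171 and Gsta3 at 0.139 were among the 16. The source of these immune UMIs was not tested. The other 10 lay above the range. Cyp4f16, a fatty acid omega-hydroxylase family member, had the highest fraction, 0.492 [0.415 to 0.580]. Gstz1 followed at 0.479, Ugt1a10 at 0.452, Gstp1 at 0.347, Gsto1 at 0.339 and Gstt1 at 0.303. Aldh7a1 at 0.251, Rdh10 at 0.244, Aldh2 at 0.210 and Ephx1 at 0.209 were closer to the upper edge, and the interval of Ephx1 reached down to 0.180, inside the range.

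**Figure D2:**
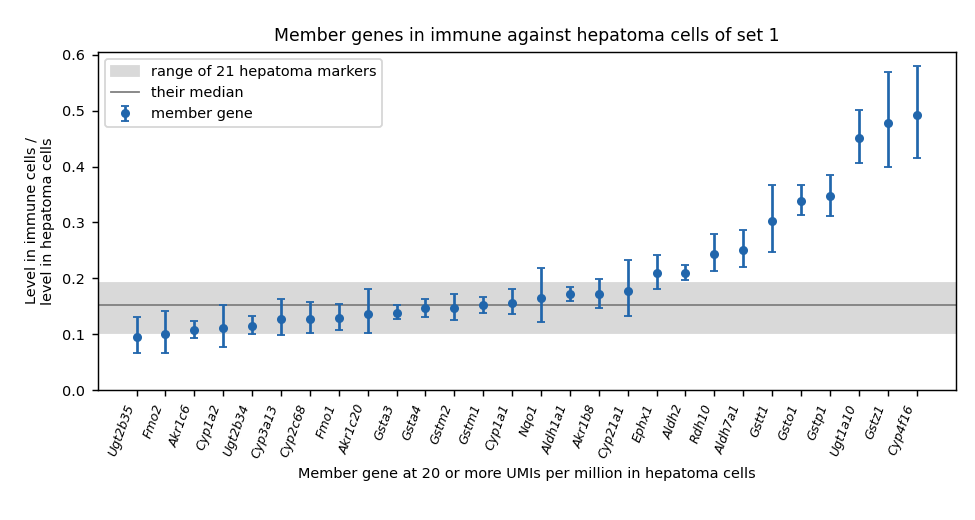
Level in immune cells divided by level in hepatoma cells for the 28 members at 20 CPM or more in hepatoma cells of set 1 (points, with exact Poisson 95% intervals). The grey band is the range of 21 hepatoma markers, 0.102 to 0.192, and the line their median, 0.152. Most members lie in the band, and Cyp4f16, Gstz1 and Ugt1a10 lie farthest above it.

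In the Fabp1-high state, gated by the liver fatty acid binding protein gene and by Apoa4, Apoa1, Apoc3, Ttr and Alb, 22 of the 67 members were higher than in the other hepatoma cells, against 8.05% of all genes, and 0 were lower, against 1.3% of all genes. The count was 13 with 20 CPM added and 14 with looser gates. The 22 comprised 11 oxidising enzymes, 1 dehydrogenase, 5 reductases, 2 hydrolases and 3 conjugating enzymes. The median log2 difference was 0.55 over the members and -0.01 over all genes. In mean deposited values 47 members were higher in all 6 sets, against 22.9% of all genes, and 6 were lower in all 6, against 23.1%. Each of the 22 was higher in 6 of 6 sets.

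Cyp2a4, a testosterone hydroxylase, showed the largest difference, 179.5 CPM in Fabp1-high cells against 2.12 CPM in the other hepatoma cells, 84.5-fold [74.7 to 95.9]. Its differences of mean deposited value ran from 0.134 to 0.286 over the 6 sets. Cyp2a5, the coumarin hydroxylase of mouse liver, lies in the same locus and stood at 15.7 against 0.243 CPM, 64.7-fold [44.6 to 96.5]. Cyp3a11, the main mouse counterpart of the drug-oxidising CYP3A4, was at 27.6 against 0.398 CPM, 69.3-fold [52.0 to 94.2]. Cyp2c70, which makes muricholic bile acids in mice, was at 25.3 against 2.12 CPM, 11.9-fold [10.1 to 14.03]. Fmo5, a flavin monooxygenase, was at 47.8 against 7.25 CPM, 6.60-fold [5.95 to 7.31]. The other oxidising enzymes that were higher were Cyp2d10, Cyp2d9, Cyp2d26, Cyp3a16, Cyp2a22 and Cyp2c68, with ratios from 2.34 for Cyp2c68 to 67.4 for Cyp2a22.

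Beyond oxidation, Adh1, the ethanol and retinol dehydrogenase of liver, was at 93.9 CPM in Fabp1-high cells against 3.97 CPM, 23.7-fold [21.4 to 26.3]. Its mean deposited value in Fabp1-high cells was 0.247 in the lowest set, 0.305 at the median and 0.331 in the highest, while over all hepatoma cells it never passed 0.059. The 6 values thus lay apart from those of the whole. The carboxylesterase Ces1c, a secreted plasma esterase in mice, was at 90.4 against 8.96 CPM, 10.1-fold [9.29 to 10.9], and Ces2e at 85.7 against 12.2 CPM, 7.03-fold [6.51 to 7.59]. Of the reductases, Akr1c14 was at 33.7 against 3.88 CPM, 8.66-fold [7.61 to 9.86], and Akr1d1, a steroid reductase of bile acid synthesis, at 15.8 against 1.61 CPM. Akr1b7, Akr1c18 and Akr1c6 differed by 4.45-fold, 4.64-fold and 2.39-fold. Of the conjugating enzymes, Ugt2b5 differed by 6.44-fold, Gstz1 by 2.78-fold and Ugt2b35 by 2.19-fold. The glutathione transferases that led in hepatoma cells as a whole did not reach 2-fold: Gsta3 was at 418.3 CPM in this state and Gstm1 at 374.6 against 253.7 CPM.

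A few abundant members went the other way without reaching 2-fold. Aldh1a1 was at 209.3 CPM in Fabp1-high cells and 362.3 CPM in the others, a log2 difference of -0.78. Gsto1 was at 89.4 and 164.6 CPM, a log2 difference of -0.84. Both were lower in the Fabp1-high cells in 6 of 6 sets.

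**Figure D3:**
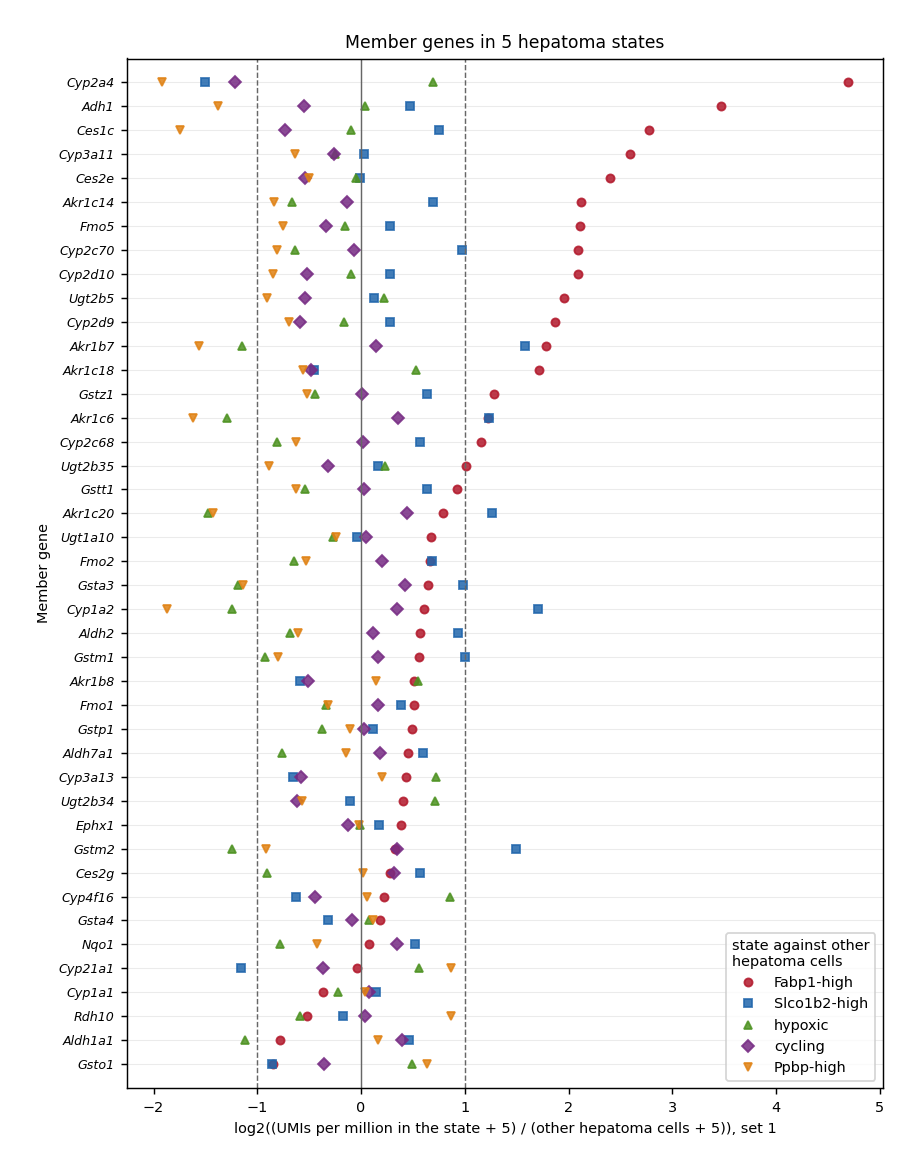
Log2 difference between each hepatoma state and the other hepatoma cells of set 1, with 5 CPM added to both levels, for the 42 members that reached 20 CPM in a hepatoma state or comparison group. Dashed lines mark 2-fold. Fabp1-high points extend to 4.69 for Cyp2a4, Slco1b2-high points pass 1 for 6 genes, and most Ppbp-high and hypoxic points of the same genes lie to the left of 0.

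The differences were steep within the score itself. The hepatoma cells of set 1 were divided by the Fabp1-high score into 6 ranges, which held 2911, 1842, 1080, 272, 96 and 63 cells from the lowest score to the highest. Cyp2a4 was at 1.99, 2.28, 2.12, 8.79, 69.9 and 867.6 CPM in these ranges. It was flat over the lower ranges, which hold most cells, and highest in the 63 cells scoring 2 and over. Adh1 was at 2.40, 3.49, 7.38, 25.3, 105.7 and 304.2 CPM, higher in every range than in the one before. Ces1c was at 2.96, 8.64, 19.9, 47.4, 97.0 and 223.1 CPM. Cyp3a11 stayed at 0.323 to 0.918 CPM through the range ending at 1.5, then was at 5.07 and 141.6 CPM. Aldh1a1 was at 321.6, 368.6 and 423.8 CPM in the lower ranges and at 287.2, 105.0 and 78.5 CPM in the upper ones. Cyp1a1 was at 93.7 CPM in the lowest range and 35.2 CPM in the highest, and Gsto1 at 194.2 and 54.1 CPM. These levels describe ranges of a score that was built from other genes, and 172 cells lay within 0.1 above the gate and 306 within 0.1 below it.

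The 63 top-scoring cells carried much of the largest ratios. Against the cells below the gate, 30 members were higher in them (12.4% of all genes were) and 3 were lower (8.3% of all genes were): Cyp1a1, Aldh1a1 and Gsto1. In the 368 cells scoring from the gate up to 2, 14 members were higher (5.45% of all genes were) and 0 were lower (1.1% were). Without the 63 cells, the log2 difference of Cyp2a4 in the Fabp1-high state was 2.08 in place of 4.69, that of Cyp3a11 0.38 in place of 2.59, and the count of higher members 14 in place of 22. Adh1 kept a log2 difference of 2.53 and Ces1c of 2.23. Within the hepatoma cells as a whole, 6 cells held 50% of the 2570 Cyp2a4 UMIs, and the highest cell held 352. The corresponding number was 35 cells for Adh1, 82 for Ces1c, 136 for Ces2e, 659 for Aldh1a1 and 763 for Gsta3.

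Cells of a score of 2 and over were found in each set, 63, 45, 35, 19, 36 and 15 of them in the order of the set numbers. The mean deposited value of Cyp2a4 in these cells was 0.557 in the lowest set, 1.06 at the median and 1.28 in the highest, and 0.0162 to 0.0233 in hepatoma cells below the gate. Adh1 was at 0.834 to 1.06 against 0.0287 to 0.0372. Neither gene's sets overlapped between the 2 groups of cells.

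Host hepatocytes can enter a tumour sample, so other liver genes were read beside these values. Afp, the fetal liver gene that hepatoma cells carry, was at 3803 CPM in the lowest score range and 12204 CPM in the highest. Alb was at 2024 and 10744 CPM, but it is a gene of the score itself, so its rise with the score was built in. Cps1 and Pck1, genes of mature hepatocytes, were at 1.15 and 0.179 CPM in the lowest range and at 44.2 and 31.8 CPM in the highest. The fetal liver gene Igf2 was at 2.19, 3.16, 8.78, 8.66, 32.6 and 172.9 CPM from the lowest range to the highest, while H19, Mdk and Dlk1 were at or below 0.429 CPM in every range. The 4 host hepatocyte markers were Cps1, Pck1, G6pc and Tat. G6pc was at 0.341 CPM in the lowest range and 24.5 CPM in the highest, and Tat at 40.4 and 109.4 CPM. The 4 markers summed to 143.0 CPM in Fabp1-high cells and 61.7 CPM in the other hepatoma cells. Tat made up most of both sums, so they say little about Cps1, Pck1 and G6pc. The macrophage markers without Apoe summed to 116.9 and 147.4 CPM, and Apoe itself was at 5239 and 2919 CPM. Whether host cells or RNA contributed to the member levels of these cells was not tested.

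**Figure D4:**
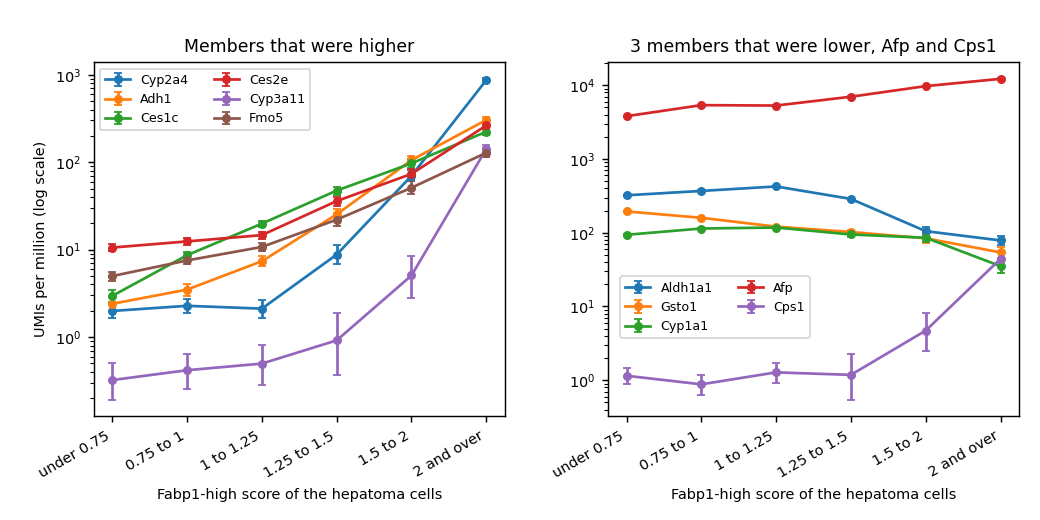
Levels in set 1 (CPM, log axis, exact Poisson 95% intervals) over 6 ranges of the Fabp1-high score of hepatoma cells. On the left, Cyp2a4, Cyp3a11, Adh1, Ces1c, Ces2e and Fmo5 are highest at a score of 2 and over, where Cyp2a4 is at 867.6 CPM. On the right, Aldh1a1, Gsto1 and Cyp1a1 are lowest there, while Afp and Cps1 are highest.

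The Cyp2a4 and Cyp2a5 genes lie on chromosome 7 in a locus with Cyp2a22, Cyp2a12 and Cyp2f2. Cyp2a4 starts at base 26307192 and Cyp2a5 at base 26835339. Their promoters are printed because both genes were highest in the same score range and their sequences are close to identical. In RefSeq's GRCm38.p6, the windows from 250 bases before to 50 after the start are chr7:26306942-26307241 for Cyp2a4 and chr7:26835089-26835388 for Cyp2a5, both on the plus strand. Capitals mark the matches found by a search of both strands for 6 motifs: the HNF1 motif GTTAAT, the C/EBP motif TTGCNNAA, the TATA box TATAAA, the AHR core GCGTG, the NRF2 core TGACNNNGC and the hypoxia core ACGTG. The AHR and hypoxia cores share the letters CGTG.
Cyp2a4: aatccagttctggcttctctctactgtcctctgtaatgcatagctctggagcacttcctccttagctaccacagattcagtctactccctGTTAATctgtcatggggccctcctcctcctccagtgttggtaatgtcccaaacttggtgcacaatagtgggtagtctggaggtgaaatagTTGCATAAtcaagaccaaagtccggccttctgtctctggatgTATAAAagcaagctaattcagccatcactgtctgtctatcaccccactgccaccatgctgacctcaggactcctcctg
Cyp2a5: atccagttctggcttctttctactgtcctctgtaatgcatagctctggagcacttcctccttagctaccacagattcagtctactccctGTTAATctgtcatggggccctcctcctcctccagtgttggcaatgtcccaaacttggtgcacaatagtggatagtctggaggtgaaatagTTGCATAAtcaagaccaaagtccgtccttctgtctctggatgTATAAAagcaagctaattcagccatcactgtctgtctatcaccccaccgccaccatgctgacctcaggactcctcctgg
The alignment of the pair had 294 identical bases, 5 mismatches and 2 gap bases, an identity of 97.7%. Both windows hold the HNF1 motif, the C/EBP motif and the TATA box in the same order, the last starting 28 bases before the start in Cyp2a4 and 29 in Cyp2a5. At the 3′ end, where the libraries count, 9.76% of the 91-base words in the last 500 bases of Cyp2a4 occur in another gene and 1.46% of those of Cyp2a5, so their counts can mostly be told apart.

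Promoters were found for 57 of the 67 members, including all 22 that were higher in Fabp1-high cells. The TATA box was present in 36.8% of the 57, in 11 of the 22 and in 13.6% of all 32851 promoters. The C/EBP motif was present in 24.6% of the 57, 27.3% of the 22 and 10.8% of all, and the HNF1 motif in 14.04%, 18.2% and 7.10%. The AHR core was present in 17.5%, 9.09% and 32.4%, the NRF2 core in 3.51%, 0% and 12.4%, and the hypoxia core in 15.8%, 9.09% and 19.6%. Members of a cluster share ancestry and often sequence, so the promoters are not independent, and a match is a description of letters and not a binding site.

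In the Slco1b2-high state, gated by an organic anion uptake transporter gene with Wif1 and Spp2, the members that were higher were 3 of the 9 reductases, 2 of the 18 conjugating enzymes and 1 of the 25 oxidising enzymes. These 6 of the 67 members were higher than in the other hepatoma cells, against 2.65% of all genes, and 2 were lower, against 4.65% of all genes. With 20 CPM added, 3 members passed in either direction. In mean deposited values 36 members were higher in all 6 sets, against 25% of all genes, and 9 were lower in all 6, against 24.1%. Cyp1a2, the caffeine-oxidising P450, was at 55.1 against 13.5 CPM, 4.09-fold [3.83 to 4.37]. Akr1b7 was at 31.9 against 7.36 CPM, 4.34-fold [3.97 to 4.74], Akr1c20 at 54.2 against 19.7 CPM, 2.75-fold [2.59 to 2.92], and Akr1c6 at 245.4 against 101.9 CPM, 2.41-fold [2.34 to 2.47]. Gstm2 was at 162.2 against 54.4 CPM, 2.98-fold [2.88 to 3.09]. Gstm1, at 400.1 against 196.9 CPM, was just past the threshold at a log2 difference of 1.00, while Gsta3 at 0.98 and Aldh2 at 0.94 were just short of it. All 8 of these genes were higher in 6 of 6 sets.

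The 2 lower members were P450 genes. Cyp21a1, a steroid hydroxylase known from the adrenal cortex, was at 11.1 against 31.1 CPM, a ratio of 0.358 [0.327 to 0.393], and lower in 6 of 6 sets. Cyp2a4 was at 5.04 against 23.4 CPM, a ratio of 0.215 [0.188 to 0.246]. The Cyp2a4 difference rested on the 63 cells of the highest Fabp1-high score: without them its log2 difference was -0.24.

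Cyp1a2 and Akr1b7 each differed from a neighbour of the same family. Cyp1a1 and Cyp1a2 lie next to each other on chromosome 9 in opposite directions. Cyp1a2 was at 41.8, 55.1, 11.3, 32.8 and 4.78 CPM in the Fabp1-high, Slco1b2-high, hypoxic, cycling and Ppbp-high states, and Cyp1a1 at 81.7, 111.6, 92.5, 108.4 and 106.6 CPM. The level of Cyp1a2 thus varied widely over the states and that of Cyp1a1 little. Akr1b7 and Akr1b8 lie next to each other on chromosome 6. Akr1b7 was at 53.2, 31.9, 5.93, 16.9 and 2.63 CPM in the same states and Akr1b8 at 122.0, 63.9, 114.6, 66.2 and 95.8 CPM. Akr1b8 was lowest in the Slco1b2-high state, where Akr1b7 was 4.34-fold higher than elsewhere, and both were highest in the Fabp1-high state. The promoters of both pairs are printed to show how unlike these neighbours are, with the same capitals as above: Cyp1a1 at chr9:57697363-57697662 on the plus strand, Cyp1a2 at chr9:57683606-57683905 on the minus strand, Akr1b7 at chr6:34412112-34412411 and Akr1b8 at chr6:34353896-34354195, both on the plus strand.
Cyp1a1: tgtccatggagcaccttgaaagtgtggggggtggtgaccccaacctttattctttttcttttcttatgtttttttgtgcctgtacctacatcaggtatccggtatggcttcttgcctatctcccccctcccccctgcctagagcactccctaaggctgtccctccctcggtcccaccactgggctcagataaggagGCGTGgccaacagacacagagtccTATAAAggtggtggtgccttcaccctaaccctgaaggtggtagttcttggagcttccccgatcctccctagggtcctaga
Cyp1a2: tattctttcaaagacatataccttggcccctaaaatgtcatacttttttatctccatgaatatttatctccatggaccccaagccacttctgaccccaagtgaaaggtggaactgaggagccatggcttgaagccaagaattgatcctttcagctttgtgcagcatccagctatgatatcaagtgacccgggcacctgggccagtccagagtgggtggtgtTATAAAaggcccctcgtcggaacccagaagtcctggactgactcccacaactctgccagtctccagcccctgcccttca
Akr1b7: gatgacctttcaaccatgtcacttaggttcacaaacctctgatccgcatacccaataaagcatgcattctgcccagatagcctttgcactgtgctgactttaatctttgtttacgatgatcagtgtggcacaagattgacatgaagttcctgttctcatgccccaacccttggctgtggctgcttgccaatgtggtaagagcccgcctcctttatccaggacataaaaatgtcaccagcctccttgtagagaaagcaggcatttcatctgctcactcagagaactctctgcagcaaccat
Akr1b8: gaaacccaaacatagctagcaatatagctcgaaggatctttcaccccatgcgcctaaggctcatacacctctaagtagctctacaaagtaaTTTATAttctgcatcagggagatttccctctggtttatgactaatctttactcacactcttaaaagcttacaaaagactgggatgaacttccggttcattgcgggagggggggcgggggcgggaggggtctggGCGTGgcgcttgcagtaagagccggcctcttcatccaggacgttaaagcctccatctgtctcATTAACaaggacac
The identity was 46.6% for the Cyp1a pair and 49.3% for the Akr1b pair. Cyp1a1 holds the AHR core 54 bases before the start, and both Cyp1a windows hold the TATA box, 30 bases before the start in Cyp1a1 and 29 in Cyp1a2. Akr1b8 holds the AHR core 26 bases before the start, and the Akr1b7 window holds none of the 6 motifs. The letters absent from these short windows may stand elsewhere in the locus.

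In the hypoxic state, gated by hypoxia-induced genes such as Ndrg1, Bnip3 and Car9, several of the same enzymes were lower. Of the 67 members, 0 were higher, against 4.9% of all genes, and 7 were lower, against 10.6% of all genes, so the share of lower members was close to that of all genes. The count was 12 with 1 CPM added and 4 with 20 CPM. In mean deposited values, 35 members (52.2%) were lower in all 6 sets, against 35.7% of all genes, and 10 (14.9%) were higher in all 6, against 15.4%. Akr1c20 was at 10.8 against 39.0 CPM, a ratio of 0.277 [0.251 to 0.306], and Akr1c6 at 70.7 against 180.1 CPM, 0.393 [0.378 to 0.408]. Cyp1a2 was at 11.3 against 33.5 CPM, 0.337 [0.305 to 0.371]. Gstm2 was at 43.0 against 108.4 CPM, 0.397 [0.377 to 0.417], and Gsta3 at 143.1 against 332.1 CPM, 0.431 [0.419 to 0.443]. Aldh1a1 was at 187.1 against 412.6 CPM, 0.454 [0.443 to 0.465], and Akr1b7 at 5.93 against 19.2 CPM. These 7 genes were lower in 6 of 6 sets. Before doublets were left out, 153 of the 2015 hypoxic cells were also among the 1766 Slco1b2-high cells of set 1. The comparison group thus held most Slco1b2-high cells, in which several of these genes were higher. How far that accounts for these ratios was not tested. Some members lay on the higher side without reaching 2-fold in log2 with 5 CPM added: Cyp4f16 at 0.85, Cyp3a13 at 0.72, Ugt2b34 at 0.71 and Akr1b8 at 0.55, each higher in 6 of 6 sets.

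In the Ppbp-high state, gated by Ppbp, Anxa1 and Tff2, 0 members were higher, against 2.0% of all genes, and 8 were lower, against 3.9% of all genes. The count was 22 with 1 CPM added, 3 with 20 CPM and 15 after each cell was thinned to 1000 UMIs. In mean deposited values 34 were lower in all 6 sets, against 19.5% of all genes, and 6 were higher in all 6, against 23.6%. Cyp1a2 was at 4.78 against 30.8 CPM, a ratio of 0.155 [0.126 to 0.189], and Akr1c20 at 9.71 against 34.5 CPM, 0.281 [0.243 to 0.324]. Akr1c6 was at 50.2 against 165.2 CPM, 0.304 [0.285 to 0.324], and Gsta3 at 134.9 against 302.1 CPM, 0.446 [0.429 to 0.464]. Adh1, Akr1b7, Ces1c and Cyp2a4 were lower as well, each below 5 CPM in the state: Ces1c was at 1.90 against 18.2 CPM, Adh1 at 2.00 against 13.2 CPM and Cyp2a4 at 1.56 against 19.8 CPM. All 8 were lower in 6 of 6 sets. Before doublets were left out, only 24 of the 821 Ppbp-high cells of set 1 were also Slco1b2-high. Most of the 1766 Slco1b2-high cells, in which Cyp1a2, Akr1c20, Akr1c6 and Akr1b7 were higher, were thus in the comparison group. Their part in these ratios was not tested. Rdh10, which oxidises retinol to retinaldehyde, was at 122.7 against 65.2 CPM, 1.88-fold [1.80 to 1.97], under the threshold and higher in 6 of 6 sets.

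In the cycling state, 0 members were higher, against 7.05% of all genes, and only Cyp2a4 was lower, against 4.0% of all genes. Over the 6 sets, 17 members (25.4%) had a higher mean deposited value in all 6, against 27.9% of all genes. Lower in all 6 were 19 (28.4%), against 18.6%. Cyp2a4 was at 6.63 against 22.0 CPM, a ratio of 0.302 [0.267 to 0.341]. Without the 63 cells of the highest Fabp1-high score its log2 difference was -0.33 in place of -1.21, and 0 members passed. The most abundant members differed little between cycling and other hepatoma cells: Aldh2 was at 415.0 against 382.8 CPM and Gstm1 at 286.0 against 254.6 CPM.

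**Figure D5:**
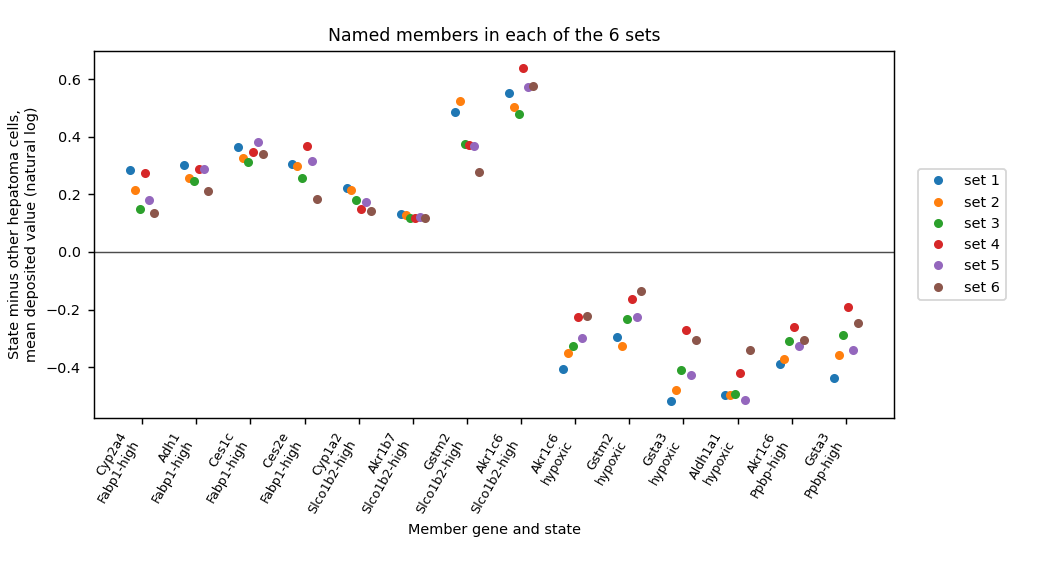
Difference of mean deposited value (natural log scale) between a hepatoma state and the other hepatoma cells, for 14 pairs of member and state, in each of the 6 sets (points). All points of a pair lie on the same side of 0: above it for the Fabp1-high and Slco1b2-high pairs and below it for the hypoxic and Ppbp-high pairs.

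In fibroblasts, Aldh1a3, Cyp26b1, Cyp1b1 and Akr1c18 were higher than in the other gated cells. These 4 members (5.97%) compare with 22.7% of all genes, and 22 members (32.8%) were lower, against 26.6% of all genes. With 1 CPM added, 7 were higher. Of the 22, 14 were lower in all 6 sets. Across sets, 10 members had a higher mean deposited value in all 6, against 22.7% of all genes, and 26 were lower in all 6, against 50.7%. The other gated cells were hepatoma and immune cells, with 148373679 and 11990953 UMIs in set 1, so their levels there are mainly hepatoma levels. Their mix differed between sets. Set 1 had 6279 hepatoma and 2360 immune cells before doublets were left out, and set 4 had 2462 and 4567. The set differences thus used unlike comparison cells. Aldh1a3, which makes retinoic acid from retinaldehyde, was at 138.7 CPM in the 73 fibroblasts and 0.437 CPM elsewhere, 318-fold [229 to 442]. Cyp26b1, which degrades retinoic acid, was at 125.8 against 0.549 CPM, 229-fold [167 to 314]. Cyp1b1, a P450 found outside the liver that oxidises oestrogens, was at 49.99 against 0.125 CPM, 401-fold [221 to 742]. Akr1c18, a progesterone-inactivating hydroxysteroid dehydrogenase, was at 27.4 against 10.4 CPM, 2.65-fold [1.54 to 4.25]. Its level was higher still, at 124.4 CPM, in hepatoma cells of a Fabp1-high score of 2 and over. The 4 fibroblast levels rest on 86, 78, 31 and 17 UMIs. Of the other members that act on retinoids, Aldh1a1 was lower, at 108.0 against 327.6 CPM, though lower in only 4 of 6 sets, and Rdh10 was at 49.99 against 69.0 CPM. Both fibroblast levels were above those of immune cells alone, 59.8 CPM for Aldh1a1 and 17.8 CPM for Rdh10. A UMI of Aldh1a3 was found in 35.6% of the fibroblasts, of Cyp26b1 in 12.3% and of Cyp1b1 in 27.4%, against 1.006%, 1.13% and 0.287% of hepatoma cells, at median depths of 6890 and 18151 UMIs.

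The mean deposited value of Aldh1a3 in fibroblasts was 0.447 in the lowest set, 0.662 at the median and 0.788 in the highest, and at most 0.00416 in hepatoma cells. Cyp26b1 was at 0.0721, 0.138 and 0.225 in fibroblasts, and Cyp1b1 at 0.105, 0.176 and 0.298. All 4 genes were higher in fibroblasts in 6 of 6 sets. Other members were present in fibroblasts at levels near or above those of hepatoma cells: Gstm2 at 120.9 CPM and Ugt1a10 at 111.3 CPM, where hepatoma cells had 90.0 and 66.7 CPM. Hepatoma markers were in fibroblasts at 0.0781 to 0.254 of their hepatoma level. Aldh2, at 153.2 CPM, was above that and Gsta3, at 35.5 CPM, within it. Of the retinoid list, 5 of 14 genes were in the table. Among them Rarres2, a retinoid-responsive chemokine gene, was at 303.1 against 0.555 CPM and higher in 6 of 6 sets. Rbp4 and Ttr, the plasma carriers made by liver cells, were lower, and Crabp2 did not reach 2-fold.

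Among the immune classes few members passed 2-fold. With 5 CPM added, a member below 5 CPM in both groups could not do so. This applied to 42 of the 67 members for CD8 T cells, 42 for CD4 T cells and 40 for macrophages. It applied to 43 for monocytes, 34 for neutrophils and 43 for dendritic cells. In CD8 T cells 0 members were higher, against 8.1% of all genes, and 2 were lower, against 18.9%. Aldh2 was at 45.8 CPM in these 1032 cells and 134.0 CPM in the other immune cells, a ratio of 0.342 [0.298 to 0.391], and Cyp4f16 at 3.42 against 25.5 CPM, 0.134 [0.0829 to 0.209]. The mean deposited value of 2 members was higher in CD8 T cells in all 6 sets, against 22.6% of all genes, and 14 lower, against 34.6%. The CD4 T class held 93 cells, of which 54 were gated as regulatory T cells. In it 0 members were higher, against 4.35% of all genes, and 0 lower, against 14.6%. With 1 UMI worth 1.82 CPM in this class, differences of low genes were not detectable. For CD4 T cells, 2 members had a higher mean deposited value in all 6 sets, against 14.9% of all genes, and 10 lower, against 26.9%.

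In 588 macrophages 2 members were higher, against 13.9% of all genes, and 0 were lower, against 16.4%. By mean deposited value, 18 (26.9%) were higher in all 6 sets, against 28.5% of all genes, and 3 (4.48%) lower, against 28.1%. Aldh2 was at 163.4 against 63.7 CPM, 2.56-fold [2.25 to 2.92], with a UMI in 38.1% of the cells. Its mean deposited value in macrophages was 0.513 to 0.577 over the 6 sets, and in CD8 T cells 0.214 to 0.243, with no overlap. CD8 T cells were the class in which Aldh2 was lower, and its set 1 levels in monocytes and neutrophils, given below, were above that of macrophages. Gstm1 was at 72.1 against 32.6 CPM, 2.21-fold [1.82 to 2.68]. Hepatoma markers were in macrophages at 0.146 to 0.308 of their hepatoma level, with a median of 0.219, more than in the immune cells as a whole. The Gstm1 level in macrophages, against 264.1 CPM in hepatoma cells, stood within that range, and the Aldh2 level, against 392.6 CPM, above it. The part of hepatoma RNA in the macrophage values was not tested.

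In 84 monocytes 4 members were higher, against 11.5% of all genes, and 3 were lower, against 19.1%. By mean deposited value, 6 were higher in all 6 sets, against 14.7% of all genes, and 11 lower, against 32.5%. Aldh2 was at 207.8 against 79.6 CPM, 2.61-fold [1.95 to 3.43], Cyp4f16 at 53.9 against 11.7 CPM, 4.61-fold [2.46 to 8.01], and Ugt1a10 at 73.1 against 29.2 CPM, 2.51-fold [1.49 to 3.98]. These rest on 54, 14 and 19 UMIs. The fourth, Cyp4b1, and the 3 lower members, Akr1b8, Cyp1a1 and Rdh10, rest on 1 or 2 UMIs in monocytes and their intervals include no difference. In 83 dendritic cells only Cyp4f16 was higher, against 7.4% of all genes, and 0 members were lower, against 17.9%. By mean deposited value, 6 members were higher in all 6 sets, against 15.3% of all genes, and 12 lower, against 31.8%. Cyp4f16 was at 69.5 against 10.6 CPM, 6.55-fold [4.18 to 9.94], and above its hepatoma level of 25.6 CPM. Its mean deposited value in dendritic cells was 0.193 to 0.325 over the sets and in CD8 T cells 0.0127 to 0.0345, with no overlap. CD8 T cells were the class in which Cyp4f16 was lower, while monocytes were at 53.9 CPM.

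In 63 neutrophils, with a median of 1235 UMIs per cell, 9 members were higher, against 15.8% of all genes, and 3 were lower, against 22.4%. By mean deposited value, 2 members were higher in all 6 sets, against 10.6% of all genes, and 11 were lower in all 6, against 38.5%. Aldh2 was at 366.7 against 79.6 CPM, 4.61-fold [3.31 to 6.26], from 43 UMIs in 17.5% of the cells, and was higher in 4 of 6 sets. Ugt1a10 was at 93.8 against 29.5 CPM, 3.18-fold [1.57 to 5.77], from 11 UMIs. Cyp1a2, Cyp3a13 and Fmo5 rest on 3, 4 and 3 UMIs, with ratios of 9.21 [1.81 to 29.3], 6.43 [1.70 to 17.3] and 7.60 [1.503 to 23.8]. Several of these directions turned: Fmo5 was lower in 4 of 6 sets, with a log2 difference of -1.10 in thinned cells and -1.18 in shallower cells in place of 1.87. Cyp3a13 was lower in 2 of 6 sets, and Cyp1a2 had a log2 difference of -0.55 in deeper cells. Aldh2 had one of -0.83 in shallower cells, and Ugt1a10 was lower in 1 of 6 sets. The other 4 rest on 1 or 2 UMIs, and the 3 lower members had 0 UMIs. Hepatoma markers in neutrophils ranged from 0 to 0.538 of their hepatoma level, and the 5 members named here stood above that range. These 5 were named because they were high in neutrophils, so their place above it was partly built in. No interval was set on these fractions, and those of Cyp1a2, Cyp3a13 and Fmo5 rest on 3 or 4 UMIs.

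The genes that share pathways with the members were counted from 4 lists. Of 30 NRF2-driven antioxidant genes, 10 were in the table. In hepatoma against immune cells Gclm, Mgst1, Mgst3 and Osgin1 were higher and Hmox1, the haem oxygenase, was lower in set 1, at 94.4 against 249.7 CPM. By mean deposited value Hmox1 was higher in hepatoma cells in the other sets, 5 of 6. In the hypoxic state Hmox1 was higher, at 224.8 against 43.5 CPM, as was the cystine transporter gene Slc7a11, at 63.9 against 29.3 CPM, both in 6 of 6 sets. The member Nqo1, a quinone reductase also driven by NRF2, was at 14.6 CPM in hypoxic cells and 32.4 CPM in Slco1b2-high cells. Hmox1 was lower in the Slco1b2-high state, at 50.5 against 116.1 CPM, and in the cycling state, at 24.7 against 124.7 CPM. In fibroblasts Gpx3, the plasma glutathione peroxidase, was at 496.6 against 0.667 CPM, while Gclm, Mgst3 and Osgin1 were lower.

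Of 28 receptor and factor genes, 6 were in the table, and 5 were higher in hepatoma than in immune cells: Cebpa, Cyb5a, Hnf4a, Nr0b2 and Nr5a2. Cebpa was at 127.1 CPM in Fabp1-high cells and 60.4 CPM in other hepatoma cells. Nr0b2, a bile acid-responsive repressor, was at 29.3 against 11.9 CPM in the Slco1b2-high state, 7.49 against 21.6 CPM in the hypoxic state and 4.44 against 19.8 CPM in the Ppbp-high state. Tiparp, a target of the AHR, was at 210.9 against 52.6 CPM in the hypoxic state and 46.6 against 119.0 CPM in the cycling state, in both cases past the threshold. Cyp1a1, the member under the same receptor, was at 92.5 against 109.0 CPM in the hypoxic state. Of 20 transporter genes, 3 were in the table. Abcb4, the phospholipid exporter of bile, was at 25.5 against 7.49 CPM in the Fabp1-high state and lower in the Ppbp-high state. Slco2a1, a prostaglandin transporter, was lower in the Slco1b2-high state, at 12.3 against 31.1 CPM, and the bile acid transporter Slc10a1 was at 0.195 CPM in hepatoma cells.

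Position and sequence sharing limit some single-gene values. The reference placed 66 of the 67 members at 38 loci when neighbours within 1000000 bases were joined, and 14 of these loci held more than 1 member, 42 members in all. The largest, with 5 members each, were the Cyp2a locus on chromosome 7 and the Akr1c locus on chromosome 13. Within the Akr1c locus, Akr1c6 and Akr1c20 were higher in the Slco1b2-high state, while Akr1c18 was at 7.89 CPM there and 39.2 CPM in the Fabp1-high state. In the last 500 bases of their transcripts, 16 members share 91-base words with another gene, and for 6 of them the share is above 25%. It was 100% for Ugt1a10, whose last exons are common to the Ugt1a genes, and for Rdh16f1. It was 77.8% for Gstp2, 77.6% for Gsta1, 68.0% for Gstp1 and 27.8% for Cyp2c68, so the counts of these 6 genes are uncertain.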

How the data were processed

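Tumours were dissociated and profiled by droplet-based 3′ single-cell sequencing on a DNBelab C4 system, per the labels' protocols. The same source names STAR 2.7.2b for alignment and PISA for the counting of UMIs. The submitters' processing notes name GRCh38 and mm10 and give neither a role, so the table's build is not given in the sources used here. The 1 deposited table holds natural log values for 2000 genes and 53528 cells. None of these 53528 columns names a group, so no genotype or treatment was compared and the table was treated as 1 sample.

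In set 1, every cell gave a UMI total under which 100% of nonzero values were whole UMIs (tolerance 0.01) as ln(1 + UMIs per 10000). In the other sets a total was found for 12.5% to 29.5% of cells. The table's genes hold 15.03% of the UMIs of set 1. Levels are UMIs per 1000000 UMIs (CPM), with exact Poisson 95% intervals, 5 CPM added for log2 differences, and a floor of 3 UMIs. Shares of cells with a UMI are plain proportions.

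Doublets were called with Scrublet in scanpy 1.11.5 (expected rate 6%). Score thresholds (1.25 for Fabp1-high, 1 for Slco1b2-high and hypoxic, 0.75 for cycling and Ppbp-high) were set after seeing the score distributions. Python 3.11.15, numpy 2.4.6, scipy 1.17.1 and pandas 2.3.3 were used, and the counting was tested on simulated data. Alternatives covered the pseudocount, the averaging, thinning to 1000 UMIs, looser and stricter gates, Leiden clusters (leidenalg 0.10.2), depth and single sets.

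Members named in full were the 12 highest in hepatoma cells. For each state they were up to 8 members at least 2-fold different and at 20 CPM or more, and for each class up to 6 that were higher. Others were named as examples after their values were seen. A gene of the retinoid list is not reported here. The members, markers and lists were chosen with earlier results of these data known.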

Additional observations from a re-analysis of the deposited data

Results flagged for a closer look

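Of 17 values compared over the 6 sets, 5 had 1 set standing apart from the other sets by more than Dixon's 95% limit, and chance does this for about 1 group in 20. All 5 concerned set 4, whose group is not recorded and whose values were altered by an unrecorded step. Its share of hepatoma cells in the hypoxic range was the highest, 41.9%, and its share in the cycling range the lowest, 13.2%. Its mean deposited values in hepatoma cells were the lowest for Aldh2 (1.19), Aldh1a1 (1.03) and Gsta3 (0.852). Aldh1a1 and Gsta3 were also lower in hypoxic than in other hepatoma cells in each set. How far the share of hypoxic cells accounts for the lower means of set 4 was not tested.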

How the results depend on the processing

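With 20 CPM added in place of 5, 22 members were higher in hepatoma than in immune cells (34 in the report), and 13, 3, 4, 0 and 3 members passed 2-fold in either direction in the Fabp1-high, Slco1b2-high, hypoxic, cycling and Ppbp-high states, against 22, 8, 7, 1 and 8. With 1 CPM added, the hypoxic, cycling and Ppbp-high counts were 12, 3 and 22, and 7 members were higher in fibroblasts in place of 4. Looser gates gave 14 members for Fabp1-high. Leaving out the cells scoring 2 and over, an alternative added after seeing the data, also gave 14. The cycling count was 3 with Leiden clusters or cells of 1 state only, and 0 with rates averaged over cells, thinned cells, looser gates, the shallower cells or the top-scoring cells left out. Thinning gave 15 for Ppbp-high. Summed over the 6 immune classes, 16 members were higher; the sum was 33 with 1 CPM added, 8 with 20 CPM, 32 after thinning, 29 in the shallower cells and 9 with at least 50 UMIs required. The cause of these shifts was not tested. Of 108 counts under alternatives, 83 stayed within 1.5 times the reported count. Adding 1 or 20 CPM, or requiring 50 UMIs, could not turn the direction of a named ratio. The set differences include those of set 1, whose cells gave the named ratios. Of 643 alternative values of the 54 named ratios, 270 kept their direction but lay outside the counting interval of the reported value. Direction was kept in 639 of the 643 and in 314 of 324 set differences. Those that turned were, in neutrophils, Aldh2 (-0.83 in shallower cells, and differences of -0.0253 and -0.0571 in sets 4 and 5), Cyp1a2 (-0.55 in deeper cells), Cyp3a13 (-0.0385 and -0.0888 in sets 3 and 4), Fmo5 (-1.10 thinned, -1.18 in shallower cells, and -0.0388, -0.0207, -0.0117 and -0.0069 in sets 2, 4, 5 and 6) and Ugt1a10 (-0.0080 in set 3). In hepatoma cells, Cyp2a4 turned in the Slco1b2-high state in set 6 (0.0027). Leiden clusters gave no value for the Slco1b2-high and Ppbp-high states, because in no cluster did 50% of the cells pass those gates. They gave none for the immune sum, because no cluster reached that share for CD4 T cells or monocytes. Depth limits the small classes most: 1 UMI was worth 8.53 CPM in neutrophils and 1.61 CPM in fibroblasts, and 0.00674 CPM in hepatoma cells. No paired analysis was possible because no column of the table is tied to a labelled group or replicate.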

Other observations

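Cyp11a1, the enzyme that starts steroid synthesis from cholesterol, was close to absent from hepatoma cells, at 0.863 CPM in set 1. In cells gated by mast cell and basophil markers its mean deposited value was 1.18 in set 4 (14 cells) and 1.11 in set 6 (28 cells), the sets with at least 10 such cells. The immune cells of set 1 held Cyp11a1 at 0.584 CPM, and set 1 held a single cell of the mast cell and basophil gate, so no level in UMIs could be given. The gene was noticed after its values were seen.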
